A study of Mus musculus with 33 samples.

Results

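Three-way contacts of the wild-type *Tcra*–*Tcrd* locus were compared between 2 viewpoints, the enhancer Eα and the TEA promoter (TEAp), in double-positive (DP) thymocytes. The comparison holds 6 of the 33 libraries of the series, 3 with the Eα bait and 3 with the TEAp bait, chosen by their titles. All 6 came from C57BL/6 mice of genotype CBE+/+Rag1-/-, in which EACBE, the CTCF-binding element beside Eα, is intact. Thymocytes of *Rag1*-deficient mice do not recombine their receptor genes, and anti-CD3 antibody injected at 3 weeks of age drove them to the DP stage within 10 days, so the locus was assayed in its germline order. In 3C-HTGTS, cells are fixed, chromatin is cut with MboI and ligated, and DNA that starts at a bait primer is amplified and sequenced. A read that runs from the bait through a further pair of MboI fragments records a three-way contact. Per the study's methods the Eα primer used here lies outside the restriction fragment that holds the enhancer itself, which a second Eα bait, with 1 library, does contain. Nothing in the labels says which mice the libraries came from, so the spread between libraries may be partly technical. The 4 liver libraries of both baits, used below for comparison, are by their titles also *Rag1*-deficient with EACBE intact. The study's methods describe the antibody injection for DP thymocytes only.

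*Tcra* and *Tcrd* share 1 locus. V genes lie at its 5′ side, the D, J and C segments of *Tcrd* follow, and the long Jα array, the Cα gene and Eα lie at its 3′ side. Eα activates TEAp, the promoter in front of the Jα array, and the first *Tcra* rearrangements of a DP thymocyte join the V genes nearest to *Tcrd* with the first Jα genes. INT1 and INT2 (INTs) are CTCF-binding elements between the V region and *Tcrd* that hold the V genes apart from *Tcrd*.

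The map spanned chr14:53740001-54300000 of mm10 in 112 bins of 5 kb. Reads with a fragment in the TEAp bin (54150001 to 54155000) or in the pair of Eα bins (54220001 to 54230000) were left out, since each bait fills its own bin. This took away 13.2% to 14.6% of the Eα reads and 6.04% to 6.78% of the TEAp reads in the map. The Eα libraries kept 35967, 14517 and 16159 reads and the TEAp libraries kept 62526, 48708 and 71517, with 2 fragments each. A count of 3 fragments is at most 0.0103% of a library. Over chromosome 14, reads per distinct pair of fragments were between 2.47 and 4.06, so reads are not independent molecules, and results are also given with each distinct pair counted once where this changes them. Read names show 1 type of sequencing instrument for the Eα libraries and another for the TEAp libraries, so instrument and bait cannot be told apart.

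Fragments from bins of the results below are shown first, as the mm10 sequence on the plus strand. For each INT bin and each V bin that differed in composition between the baits, the MboI fragment with the most distinct pairs is given. Each held 14.6% to 32.8% of the distinct-pair counts of its bin, and the results are for whole bins. Capitals mark a match to the CTCF core, searched on both strands as the letters AGGGGGC or as AGGTGGC or as AGATGGC or as AGAGGGC.
INTs, chr14:54059843-54059935: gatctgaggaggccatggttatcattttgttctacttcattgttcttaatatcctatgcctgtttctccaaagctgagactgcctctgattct
INTs, chr14:54064534-54064731: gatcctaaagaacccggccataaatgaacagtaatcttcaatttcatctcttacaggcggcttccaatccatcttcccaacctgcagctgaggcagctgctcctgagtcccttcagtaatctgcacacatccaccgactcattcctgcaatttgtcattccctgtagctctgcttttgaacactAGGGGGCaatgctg
INTs, chr14:54065535-54065619: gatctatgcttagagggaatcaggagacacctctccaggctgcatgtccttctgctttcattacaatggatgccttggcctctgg
*Trdv1* bin, chr14:53881468-53881513: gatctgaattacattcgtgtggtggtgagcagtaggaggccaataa
*Trdv3* bin, chr14:54000791-54000899: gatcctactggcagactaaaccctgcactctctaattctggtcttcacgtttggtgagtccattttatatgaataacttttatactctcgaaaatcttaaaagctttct
The letters AGGGGGC occurred once, on the plus strand, in the fragment of 198 bases from the middle INT bin, and 10.4% of the map's windows of that length held at least 1 of these strings. The other 4 fragments held none, against 2.28% to 5.86% of windows of their lengths. Searched as whole bins, the INT bins held 5, 2 and 5 matches and the *Trdv1* and *Trdv3* bins 2 each. Of all 112 bins of the map, 93.8% held at least 1. None of the 3 INT fragments lies in an annotated gene, and the last of them ends 1959 bases before the near end of the antisense gene *Gm30275*. The *Trdv1* fragment ends 98 bases before the annotated start of that V gene, and the *Trdv3* fragment ends 59 bases before its own. *Trdv3* is annotated as a pseudogene.

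The outline of the locus differed between the views mainly on both sides of TEAp, and in few bins over the V genes. In the profile of fragments per 5 kb bin, 39 of 107 bins tested (36.4%) passed an adjusted p of 0.05 in edgeR's quasi-likelihood test, 19 higher from Eα and 20 higher from TEAp. All 3 INT bins and all 15 tested bins of the *Tcrd* interval were higher from TEAp. All 11 bins of the distal J array, 1 of 2 bins of the proximal J region and 7 of 14 bins downstream of Eα were higher from Eα. In the proximal V region 2 of 50 bins were higher from TEAp and none was higher from Eα, and none of 12 bins further upstream passed. Across the 107 bins, log2 shares of libraries of the same bait correlated with a Pearson r of 0.968 to 0.973 for Eα and 0.982 to 0.985 for TEAp, and libraries of different baits with 0.882 to 0.911. These bins share libraries and mappability, so the values are a description.

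**Figure D1:**
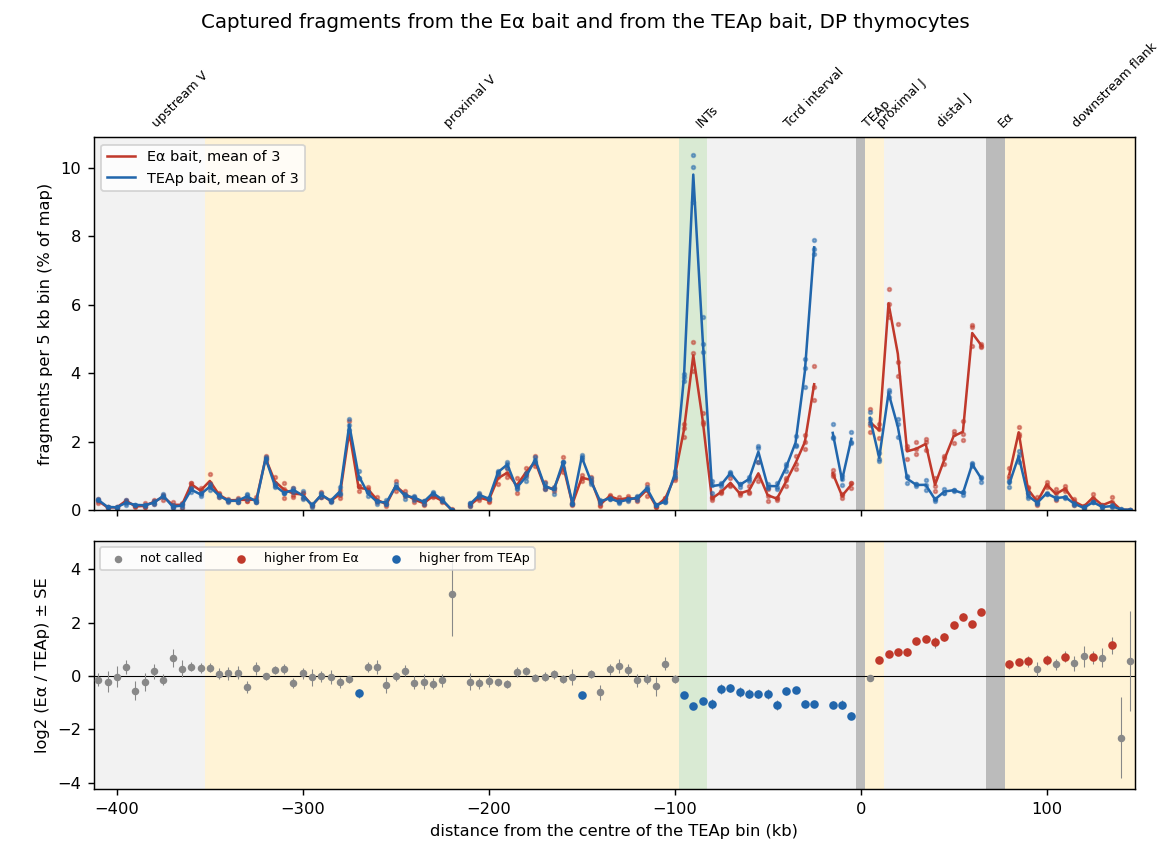
Top: share of captured fragments in each 5 kb bin (% of the map) against distance from the TEAp bin, as the mean of 3 libraries (lines) and each library (points). Bottom: log2 ratio of Eα over TEAp with its standard error, coloured where the adjusted p was under 0.05. The red and blue points change sides at the grey TEAp bin, and the points of the proximal V region lie around 0.

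The share of fragments in the proximal V region (53800001 to 54055000) overlapped between the views. It was 29.8%, 26.4% and 28.0% in the Eα libraries and 29.6%, 28.7% and 30.5% in the TEAp libraries. The groups overlapped, with means of 28.1% ± 1.73 and 29.6% ± 0.905 (SD, n = 3 each, exact permutation p = 0.3, two-sided). Eα lies further from the V genes than TEAp does, with the whole J array between. In liver, where the locus is inactive, the same share was 8.31% and 11.4% from Eα and 16.4% and 16.7% from TEAp, below every DP library of the same bait. The liver libraries rest on 620 and 352 reads for Eα and 3263 and 795 for TEAp.

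Of the 7 segments, 6 did not overlap between the baits (85.7%), and the largest differences were in the J array, the *Tcrd* interval and the INTs. With 3 libraries against 3 the smallest p an exact permutation test can give is 0.1, and 0.117 after Benjamini-Hochberg adjustment over the 7 segments, so no segment could pass. The distal J array (54165001 to 54220000) held 32.5%, 33.1% and 32.5% of the fragments from Eα and 12.7%, 12.9% and 11.6% from TEAp. Every Eα library stood far above every TEAp library, a ratio of means of 2.64. The *Tcrd* interval, between the INTs and TEAp, held 13.6%, 15.2% and 15.0% from Eα and 27.6%, 27.8% and 26.8% from TEAp. Here each TEAp library was the higher. The INTs held 9.02%, 9.82% and 9.71% from Eα and 17.8%, 19.0% and 19.5% from TEAp, again with every TEAp library higher. The groups overlapped in the upstream V and proximal J segments once each distinct pair was counted once.

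**Figure D2:**
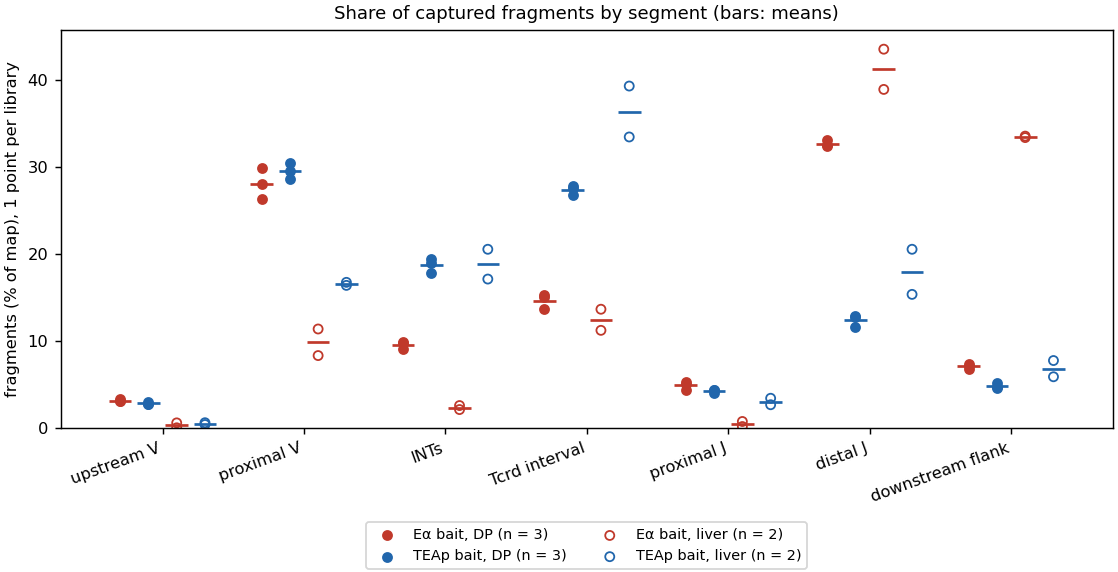
Share of captured fragments in each segment (% of the map), 1 point per library, with bars at the means. Filled points are DP thymocytes (3 libraries per bait) and open points are liver (2 per bait). The filled red and blue points meet in the proximal V region, where the open points lie lower.

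Counted by distance from the bait bins, 40.7% ± 1.43 of the Eα fragments lay more than 150 kb upstream, a stretch that takes in the proximal V region, and 26.6% ± 0.233 lay within 50 kb upstream (SD, n = 3). From TEAp these were 26.5% ± 0.902 and 21.6% ± 0.599. The segments at a given distance are not the same for both baits. From Eα the stretch beyond 150 kb also takes in the INTs. From TEAp it leaves out the INTs and the bins of the proximal V region nearest to them. From TEAp, 13.9% ± 0.801 of fragments lay within 50 kb downstream and 7.58% ± 0.390 further downstream (SD, n = 3). From Eα these were 6.70% ± 0.437 and 0.391% ± 0.156, in a map that reaches only 70 kb beyond Eα.

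The INTs stood out as a peak in both views. The middle INT bin (54060001 to 54065000) held 4.05%, 4.90% and 4.60% of fragments from Eα and 9.02%, 10.4% and 10.0% from TEAp. The groups did not overlap, and the log2 fold change (Eα over TEAp) was -1.12 ± 0.101 (SE, adjusted p = 6.68e-24). This was the highest bin of the TEAp view. The INT bin upstream of it differed by -0.73 ± 0.112 (adjusted p = 1.31e-09) and the bin downstream by -0.93 ± 0.109 (adjusted p = 3.00e-15). The liver shares of all 3 bins together were 2.10% and 2.56% from Eα and 20.5% and 17.1% from TEAp. In liver the TEAp values therefore lay around those of DP cells, and the Eα values lay below them.

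Within *Tcrd*, the bin with *Trdd2*, a Dδ segment, and *Trdj1*, a Jδ segment, held 1.77%, 2.19% and 1.98% from Eα and 3.58%, 4.41% and 4.15% from TEAp. The *Trdd2* difference was -1.03 ± 0.114 on the log2 scale (adjusted p = 4.34e-17). The next bin, 54125001 to 54130000, was the second highest of the TEAp view, at 7.50%, 7.90% and 7.64%, against 3.22%, 4.22% and 3.59% from Eα. The bin of *Trdd1*, the other Dδ segment, differed less, by -0.58 ± 0.147 (adjusted p = 3.97e-04). *Trdc*, the constant gene of the δ chain, spans a pair of bins with differences of -1.08 ± 0.180 (adjusted p = 2.69e-08) and -1.49 ± 0.138 (adjusted p = 6.16e-23). The second of these touches the TEAp bin and had the largest excess of the TEAp view among bins past the threshold. Its values were 0.790%, 0.627% and 0.795% from Eα and 1.98%, 2.29% and 1.97% from TEAp.

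On the other side of TEAp the bin of the first Jα genes did not separate the baits. The bin with *Traj61*, *Traj58*, *Traj57* and *Traj56*, Jα genes close to TEAp, held 2.27%, 2.95% and 2.49% from Eα and 2.65%, 2.87% and 2.55% from TEAp. The groups overlapped, with a log2 fold change of -0.07 ± 0.115 (adjusted p = 0.650), although this bin touches the TEAp bin. In 12 alternative settings that kept this bin the value ran from -0.20 to 0.01 and none passed the threshold. The next bin, with *Traj55*, *Traj54* and *Traj53*, was higher from Eα by 0.61 ± 0.124 (adjusted p = 5.89e-06).

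The excess of the Eα view was larger toward the Eα end of the array, though not at each step. The fold was 1.77 at *Traj52* to *Traj48*, 2.46 at *Traj39* to *Traj34*, 2.75 at *Traj24* to *Traj20* and 5.30 at *Traj4* to *Traj1*, the last Jα genes before Cα. Among bins past the threshold, the 5 with the largest excess were the last 5 of the array. In the last bin the Eα libraries held 4.77%, 4.79% and 4.86% and the TEAp libraries 0.948%, 0.957% and 0.819% (log2 fold change 2.41 ± 0.119, adjusted p = 2.20e-62). The libraries of each bait lay close together and the groups were far apart. The middle of the array, with *Traj29* to *Traj25*, had the lowest level within the array in both views, 0.732% from Eα and 0.308% from TEAp. A local peak at *Traj52* to *Traj48* was seen from both, with means of 6.04% from Eα and 3.42% from TEAp. Behind Eα, *Dad1*, a ubiquitous gene for a subunit of the oligosaccharyltransferase, covers 4 bins, of which 3 were higher from Eα, by log2 fold changes of 0.53, 0.55 and 0.61. The groups overlapped in the second of these, which passed in 9 of 13 alternative settings and missed the threshold without Eα replicate 1, Eα replicate 3, TEAp replicate 2 or TEAp replicate 3 (edgeR adjusted p up to 0.126 for *Dad1* there).

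Since the share of the V region did not separate the baits, its composition was compared on its own, with the fragments of the proximal V region as the total. Of 50 bins, 2 (4%) passed the threshold, both higher from TEAp, and 8 had an unadjusted p under 0.05. DESeq2 also called 2. In 48 of 50 bins the fitted fold was under 1.5 in either direction, and the median absolute log2 fold change was 0.187. Across these bins log2 shares of an Eα and a TEAp library correlated with an r of 0.934 to 0.969, against 0.941 to 0.965 between Eα libraries and 0.975 to 0.985 between TEAp libraries.

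**Figure D3:**
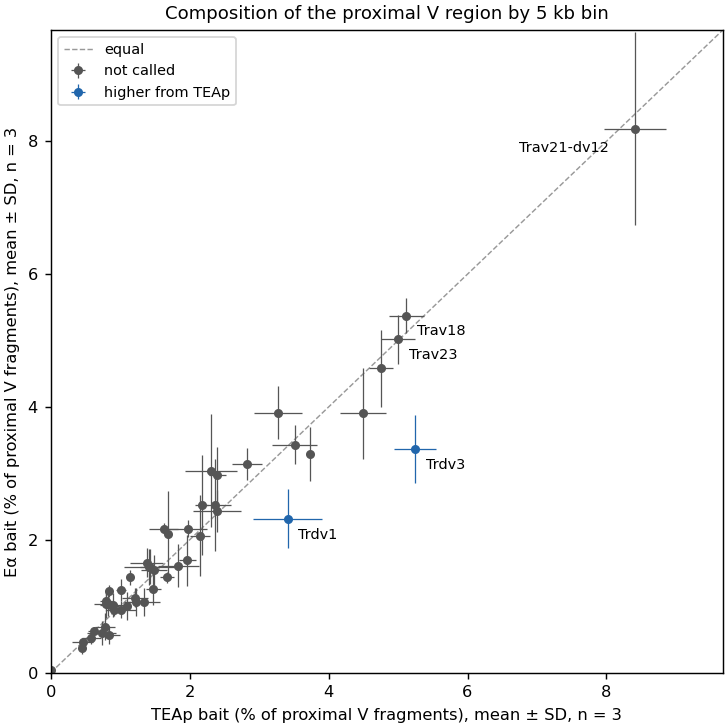
Composition of the proximal V region: each point is a 5 kb bin, with its share of the proximal V fragments (%) from TEAp on the x axis and from Eα on the y axis, mean ± SD of 3 libraries. Most bins lie along the dashed line of equality, and the bins of *Trdv1* and *Trdv3* lie to its right.

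Both bins that differed hold δ V genes. *Trdv3* had 2.84%, 3.88% and 3.38% of the proximal V fragments from Eα and 5.40%, 5.43% and 4.89% from TEAp, with no overlap (log2 fold change -0.65 ± 0.140, adjusted p = 3.77e-04). *Trdv1* had 1.81%, 2.64% and 2.50% from Eα and 3.17%, 3.99% and 3.07% from TEAp, again with no overlap (-0.57 ± 0.166, adjusted p = 0.0178). Neither call held when each distinct pair was counted once, where the adjusted p was 0.0502 for *Trdv3* and 0.0855 for *Trdv1*, with the same direction. *Trdv1* also missed the threshold without Eα replicate 1 (adjusted p = 0.214), without TEAp replicate 2 (0.199) and without TEAp replicate 3 (0.0651). *Trdv3* kept it without any one library. In the profile over the whole map both bins passed in each of 13 alternative settings.

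No other V gene of the region was called. *Trav21-dv12*, a V gene used by both receptor chains, lay in the V bin with the highest share from both baits, with 7.18%, 9.85% and 7.53% from Eα and 7.90%, 8.65% and 8.68% from TEAp. *Trav18* followed from Eα with 5.09%, 5.45% and 5.59%, and had 5.03%, 5.40% and 4.92% from TEAp. There the *Trdv3* bin was second, with a mean of 5.24% against 5.12% for *Trav18*. *Trav23* had 5.28%, 5.17% and 4.60% from Eα and 5.27%, 4.94% and 4.79% from TEAp. For none of these 3 genes were the baits apart. *Trdv2-2*, a δ V gene between the called pair, had 3.24%, 4.61% and 3.86% from Eα and 4.19%, 4.84% and 4.44% from TEAp, which overlapped. Of 11 V genes of the region the groups failed to overlap for 2 (18.2%), *Trdv1* and *Trdv3*, with an exact permutation p of 0.1 and 0.550 adjusted over the 11. Over all bins of the region the groups failed to overlap in 9 of 50, a like share, so the count of genes is no more than the background. *Trav17*, at the 5′ end of the region, had 1.30% to 1.83% from Eα and 1.28% to 1.54% from TEAp. Outside the region, the bins with *Trav14-3* and with *Trav3-4* and *Trav12-4* did not pass in the profile (adjusted p = 0.227 and 0.650).

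The spread of V fragments along the region overlapped between the baits. From Eα 37.5% ± 1.24, 24.7% ± 0.697 and 37.8% ± 0.654 of them lay in the 5′, middle and 3′ stretch of 17 bins each (SD, n = 3). From TEAp these were 36.8% ± 0.609, 25.2% ± 0.399 and 38.0% ± 0.686, with overlap in each stretch (exact permutation p = 0.4, 0.4 and 0.7). Where both fragments of a read were V fragments, 27.7% ± 0.833 of reads from Eα and 28.1% ± 0.859 from TEAp joined V sites over 50 kb apart (exact permutation p = 0.7).

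What came with a V fragment separated the baits for some segments and not for others. Among reads with a proximal V fragment, the other fragment was also a proximal V fragment in 45.8%, 44.2% and 40.1% from Eα and 41.1%, 40.0% and 41.3% from TEAp (exact permutation p = 0.3). The groups did not overlap for 4 of 7 partner segments (57.1%), the upstream V region, the INTs, the *Tcrd* interval and the distal J array. Among all fragments this was 6 of 7 segments (85.7%). The ratio of means, Eα over TEAp, was 0.541 for INTs as partner, 0.599 for the *Tcrd* interval and 2.34 for the distal J array. Among all fragments these ratios were 0.508, 0.534 and 2.64, so the partners differed in the same direction as the overall shares. INTs were the partner in 8.69%, 11.7% and 11.8% from Eα and 18.8%, 20.2% and 20.4% from TEAp. The distal J array was the partner in 19.5%, 20.4% and 22.9% from Eα and 9.42%, 8.74% and 8.66% from TEAp. The proximal J region, with the first Jα genes, was the partner in 3.05%, 3.37% and 4.38% from Eα and 3.03%, 3.86% and 3.40% from TEAp, which overlapped (exact permutation p = 0.8). The downstream flank also overlapped, at 4.52% to 6.36% from Eα and 4.14% to 4.55% from TEAp (exact permutation p = 0.2). For comparisons of 3 against 3 the smallest exact p is 0.1, reached by the 4 segments, or 0.175 adjusted over 7.

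**Figure D4:**
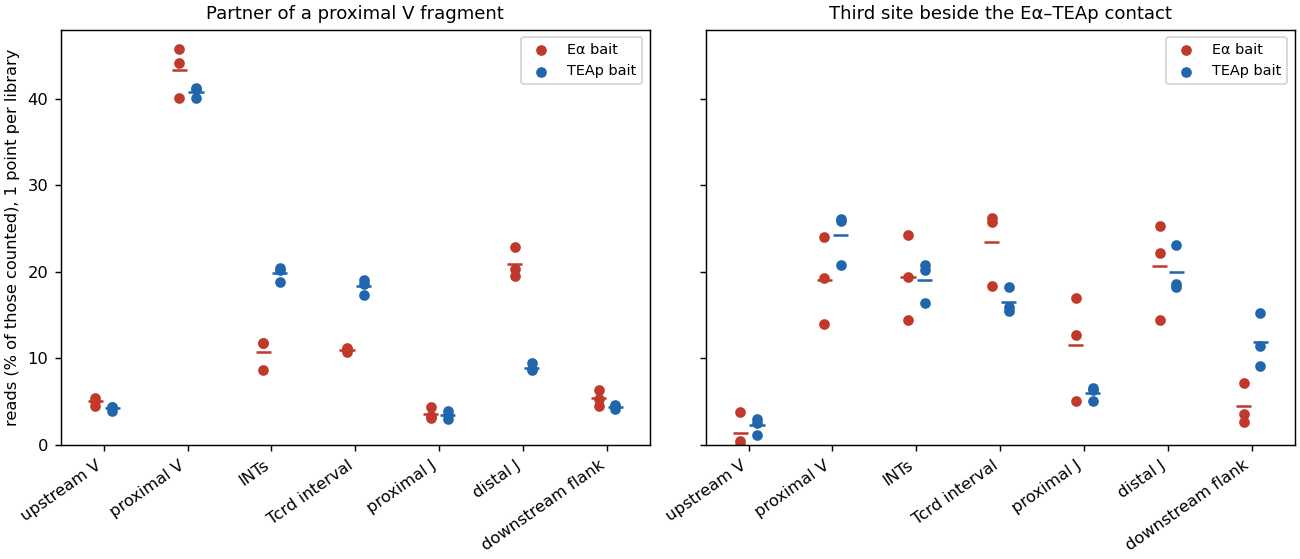
Left: segment of the other fragment in reads with a proximal V fragment (% of those reads). Right: segment of the third site in reads that join Eα and TEAp (% of those reads). Points are libraries and bars are means. On the left INTs and the distal J array separate the baits, as they do among all fragments, and on the right the baits overlap in both.

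Over the whole map, 18 of 28 pairs of segments did not overlap between the baits (64.3%). V with V reads were 18.7%, 16.2% and 16.0% of all reads from Eα and 17.2%, 16.4% and 17.8% from TEAp. Pairs inside the distal J array were 21.6%, 22.5% and 21.2% from Eα and 5.96%, 6.45% and 5.49% from TEAp. Pairs inside the *Tcrd* interval were 6.59%, 9.05% and 7.67% from Eα and 16.2%, 16.5% and 15.4% from TEAp. INTs with the distal J array, sites on either side of TEAp, were 2.76%, 3.04% and 2.44% from Eα and 3.25%, 3.10% and 2.71% from TEAp, which overlapped (exact permutation p = 0.3).

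In the map of single bin pairs, 64 of 2980 pairs tested (2.15%) passed the threshold, 41 higher from Eα and 23 higher from TEAp. Of the 41, 37 had both bins between the first Jα genes and the flank behind Eα, and of the 23, 18 had both bins in the INTs or the *Tcrd* interval. Pairs with a proximal V bin made up 2050 of the pairs tested and 9 of the calls (0.439%), against 55 calls among the other 930 (5.91%). The median log2 fold change was -0.38 for pairs with a V bin and -0.26 for the others. In simulated counts the fit found 1.20% of pairs with a log2 change of 2. Few calls among V pairs therefore do not show that these pairs were alike in both views. TMM scaling lowered the median log2 fold change of all tested pairs from -0.35 to -0.67 and gave 29 pairs higher from Eα and 45 higher from TEAp. The direction of a weak pair is thus relative to the scaling.

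**Figure D5:**
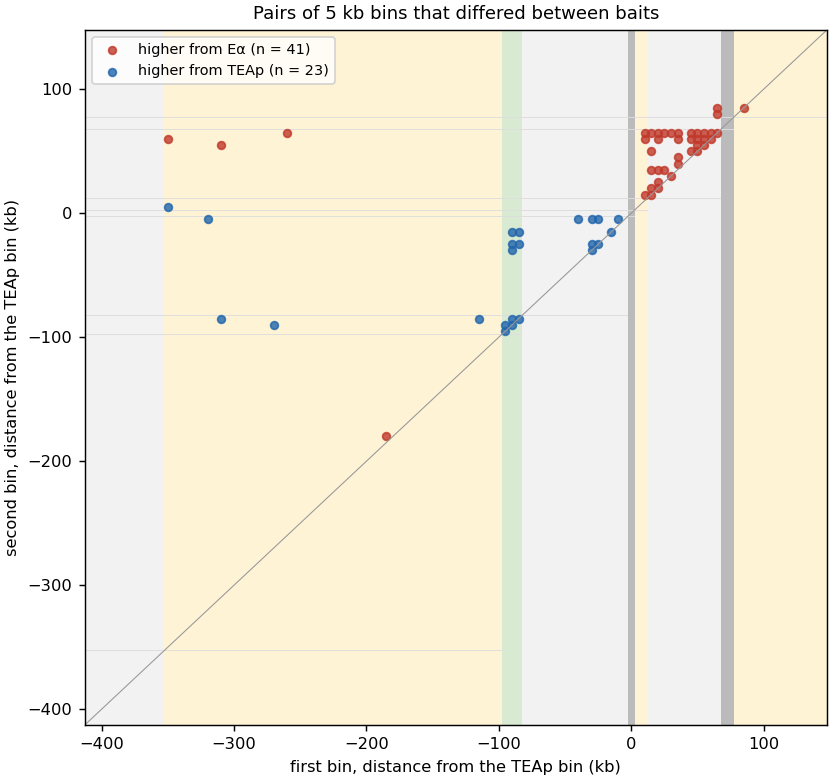
Pairs of 5 kb bins with an adjusted p under 0.05, placed by the distance of each bin from the TEAp bin (kb). Red pairs were higher from Eα (41) and blue pairs higher from TEAp (23). Red points cluster between TEAp and Eα (upper right), and blue points lie among the INTs and the *Tcrd* interval.

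Strong single pairs followed the segments. The pair of the *Traj19* to *Traj15* bin with the *Traj4* to *Traj1* bin had 165, 58 and 44 reads from Eα and 6, 9 and 8 from TEAp (log2 fold change 4.84 ± 0.579, adjusted p = 4.40e-14). The reads came from 25, 29 and 14 distinct pairs and from 3, 5 and 5. The pair of the *Trdd1* bin with the *Trdc* bin beside TEAp had 0, 0 and 1 reads from Eα and 34, 48 and 52 from TEAp (adjusted p = 0.0310). Some V bins entered pairs seen from 1 bait only. *Trav18* with the *Trdc* bin beside TEAp had no read from Eα and 58, 21 and 34 reads from TEAp (11, 7 and 17 distinct pairs, adjusted p = 0.0206 on reads). By distinct pairs pooled over libraries, this was 4.52-fold over a count of 3 set for the Eα group. The bin 53840001 to 53845000 with the *Traj14* to *Traj8* bin had 45, 3 and 12 reads from Eα (5, 2 and 5 distinct pairs) and none from TEAp (adjusted p = 3.92e-04 on reads, most of them from Eα replicate 1). By pooled distinct pairs this was 10.3-fold over a count of 3 set for the TEAp group. The first bin of the proximal V region, 53800001 to 53805000, was paired with the *Traj61* bin in 47, 31 and 34 reads from TEAp and none from Eα (3.35-fold over such a count by distinct pairs, adjusted p = 0.0186 on reads). It was paired with the *Traj7* to *Traj5* bin in 5, 13 and 18 reads from Eα and none from TEAp (6.89-fold over such a count by distinct pairs, adjusted p = 7.27e-04 on reads). These V pairs rest on few distinct pairs, 1, 1 and 6 in the last case. Their folds leave out counting error in the bait that holds the reads, so they are not lower limits. The pairs were also picked for a large fold change and passed the count filter through 1 bait only. The adjusted p values are from edgeR. Several of these calls depended on the setting, with *Trav18* and *Trdc* past the threshold in 8 of 13 alternative settings, *Trdd1* and *Trdc* in 7 of 13 and the *Traj61* pair in 9 of 13, while the 3 pairs higher from Eα described above passed in every setting that tested them. A further pair higher from Eα, of the bin 53890001 to 53895000 with the *Traj4* to *Traj1* bin (9, 8 and 8 reads against none), passed in 4 of 12, the fewest of the 10 named pairs.

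Reads that join Eα and TEAp can be seen from either end. From Eα, 1.16%, 1.25% and 1.41% of the reads in the map held a fragment of the TEAp bin. From TEAp, 4.59%, 5.24% and 5.17% held a fragment of the Eα bins, a window with 1 more bin, so these values are given side by side. The third site of such a read could be placed in 449, 194 and 239 reads from Eα (137, 74 and 102 distinct pairs) and in 2885, 2493 and 3746 from TEAp (744, 931 and 1324). A like three-way contact is counted by both, read from opposite ends.

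In these reads the share of the INTs overlapped between the ends when reads were counted. They were the third site in 19.4%, 14.4% and 24.3% from Eα and 20.2%, 20.8% and 16.4% from TEAp, with means of 19.4% ± 4.92 and 19.1% ± 2.38 (SD, n = 3, exact permutation p = 1). Against the share of the INTs among all fragments of the same library, the ratio was 2.15, 1.47 and 2.50 from Eα and 1.13, 1.09 and 0.842 from TEAp. The ratios of the baits did not overlap, and they were above 1 in 3 of 3 Eα libraries and in 2 of 3 TEAp libraries. Since the third-site means were alike by reads, this gap comes from the divisor. INTs held 9.51% of all fragments from Eα and 18.7% from TEAp, on average. With each distinct pair counted once, the third-site shares were 19.0%, 24.3% and 29.4% from Eα and 18.4%, 20.3% and 14.1% from TEAp. Exact 95% binomial intervals of the Eα shares were 12.8% to 26.6%, 15.1% to 35.7% and 20.8% to 39.3%. The closeness of the third-site means thus rests on counting reads (exact permutation p = 0.2 by distinct pairs, n = 3). Intervals cover counting error only. Counted by reads, a ratio above 1 was not particular to the INTs. From Eα it ran from 1.00 to 3.20 for the proximal J region and from 1.23 to 1.93 for the *Tcrd* interval. From TEAp it ran from 1.76 to 3.31 for the downstream flank and from 1.42 to 1.82 for the distal J array. For the proximal J region it ran from 1.17 to 1.59 from TEAp. Segments not named here for a bait had a mean ratio under 1 from that bait.

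Of 7 segments, 2 did not overlap as the third site (28.6%). The *Tcrd* interval was the third site in 26.3%, 25.8% and 18.4% from Eα and 15.5%, 15.9% and 18.2% from TEAp, the reverse of its order among all fragments. The downstream flank was the third site in 2.67%, 3.61% and 7.11% from Eα and 9.15%, 15.2% and 11.4% from TEAp, also the reverse of its order among all fragments. In both cases the exact permutation p was 0.1, or 0.350 adjusted over 7, and the closest libraries were near each other. Neither held in every count. With each distinct pair counted once the flank overlapped, at 5.41% to 9.80% from Eα and 8.87% to 12.8% from TEAp, and with masked fragments kept in the total the *Tcrd* interval overlapped, at 16.8% to 24.2% from Eα and 14.5% to 17.2% from TEAp. The proximal V region was the third site in 24.1%, 13.9% and 19.2% from Eα and 25.9%, 20.8% and 26.1% from TEAp (exact permutation p = 0.2). Its ratio to its share among all fragments was under 1 in all 6 libraries, from 0.528 to 0.806 for Eα and from 0.725 to 0.877 for TEAp.

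The distance between the fragments of a read differed in the middle range. Over 100 kb lay between them in 29.0%, 26.0% and 30.0% of reads from Eα and 30.5%, 29.1% and 30.5% from TEAp (exact permutation p = 0.2). Spans of 50 to 100 kb made up 11.8%, 12.6% and 12.0% from Eα and 17.3%, 16.6% and 16.6% from TEAp, and this class and that of 5 to 20 kb were the 2 of 5 that did not overlap (40%, exact permutation p = 0.1, adjusted 0.25). The median span was 25.7, 18.8 and 28.7 kb from Eα and 44.1, 36.9 and 42.3 kb from TEAp, so every TEAp library reached further between fragments. With each distinct pair counted once it was longer in every library, at 35.5, 27.8 and 37.4 kb from Eα and 52.8, 49.0 and 57.0 kb from TEAp.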

How the data were processed

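The authors trimmed and merged the reads, split them at MboI sites, aligned each fragment to mm10 with Bowtie2 2.4.5 and removed self-ligated, off-target and contiguous fragments. What they deposited and what is used here are whole-number counts, 1 for each bin pair of the 5 kb grid, and lines that each name a read and 2 of its fragments. The study's methods describe taking the first 2 fragments after the bait or combinations of a read's fragments. Which of these the lines hold was not checked. The deposited counts were equal to the reads when each fragment was placed in the bin that holds its end, in all 6 libraries. The authors' scaled matrices were not used here. Fragments of a read are stored by position, so their order along the read is lost.

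The groups were taken from the sample labels. The members, segments, gene lists and tests were chosen with earlier results of these data known. Bins and bin pairs with at least 10 counts over the 6 libraries were tested with the quasi-likelihood test of edgeR 4.0.16 in R 4.3.3, with the total of the masked map (or of the proximal V region) as library size and a Benjamini-Hochberg threshold of 0.05. Each read adds 1 to the bin of each of its 2 fragments. A standard error is the fold change divided by the square root of the test's F. Shares were compared by exact two-sided permutation tests over libraries. The named bins and pairs are those of listed genes and, per table, up to 5 in each direction with the largest fold change among those past the threshold without overlap between groups. The fits were tested on simulated counts with known log2 changes. The profile fit found 100% of changes of 1 and 90% of changes of 2. The V composition fit found 80% and 100% of these. The pair-map fit found 1.20% of changes of 2 and 37.4% of changes of 5, so it missed most. Alternatives were TMM, DESeq2 1.42.0, no filter, a replicate block, leaving out each library, distinct pairs, other masks, 10 kb bins and no pairs inside 1 bin. Genes are from GENCODE M21, and sequences from the GRCm38 assembly. The windows of the INTs, TEAp and Eα are inferred. Liver libraries gave 352 to 3263 reads outside the masked bins.

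Libraries of the same bait shared 5.66% to 8.19% of the distinct pairs of the smaller library and libraries of different baits 4.88% to 9.17%, with a median span under 1 kb, so no library repeated another. Stretches of the V region, distances from the bait and ratios for the site beside Eα and TEAp were described after the data were seen.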

Additional observations from a re-analysis of the deposited data

Results flagged for a closer look

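The share of the proximal J region was higher from Eα than from TEAp in DP thymocytes, by 0.682 percentage points, and lower in liver, by -2.59 percentage points. The liver shares were 0.726% and 0.142% from Eα and 2.65% and 3.40% from TEAp. Those from Eα rest on 620 and 352 reads, and so on few fragments of this region. It was flagged because every library of one tissue lay on the opposite side of the bait difference from every library of the other. The difference between the tissues was not tested, and in DP thymocytes the groups overlapped when each distinct pair was counted once, at 4.17% to 5.05% from Eα and 4.04% to 4.49% from TEAp.

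Reads with a fragment upstream of the map lie outside the comparisons of the report. From Eα they made up 4.38% of the matrix reads on average in the 3 DP libraries. In the 2 liver libraries they were 0.770% of 2207 and 0.0962% of 1040 matrix reads, a mean of 0.433%. Every DP library was above both, but the liver values rest on few reads. From TEAp the DP libraries had 3.20% to 3.41% and the liver libraries 3.28% and 4.44%.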

How the results depend on the processing

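The count of bins in the profile stayed between 36 and 41 without each library in turn and between 38 and 40 in the other alternatives with 5 kb bins, and 10 kb bins gave 25 of 55. Of the 39 bins called, 35 to 39 were called again under every setting with 5 kb bins. The bin-pair map depended more on the setting: DESeq2 called 174 pairs (all 64 among them, 1271 pairs without an adjusted p), distinct pairs gave 120, a mask widened by 1 bin gave 42, and leaving out a library gave 41 to 86, the lowest without TEAp replicate 3. In the composition of the proximal V region distinct pairs gave 0 calls in edgeR (3 bins at an unadjusted p under 0.05), and leaving out a library gave 1 to 3. With a replicate block the profile had 38 calls, the pair map 60 and the V composition 2, and 6 segments differed in 1 direction in every same-number pair. Same-numbered libraries correlated at -0.04, 0.12 and -0.28 in their deviations, and differently numbered ones at -0.28 to 0.32. With 3 libraries per bait these values cannot tell whether the numbers pair the samples. As the third site, 1 segment failed to overlap with distinct pairs and 1 with masked fragments kept in the denominator, and 2 to 4 when a library was left out. The same range was 6 to 7 segments, 18 to 21 segment pairs, 4 to 5 partners, 2 to 4 span classes and 2 to 6 V genes, where the highest counts came without Eα replicate 3 for the site beside Eα and TEAp (4), without TEAp replicate 2 for spans (4) and without Eα replicate 1 for V genes (6, and 4 without Eα replicate 2). The cause was not tested. Fits of the first or second fragment alone were not run, nor was their comparison, because their order is lost. Of the named bins, pairs and segments, none changed direction while past the threshold. Depth limits the pair map, where most pairs hold few distinct pairs, and the liver shares.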

Other observations

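The second Eα bait, with 1 DP library of 64780 compared reads, had 27.1% of its fragments in the proximal V region, 13.5% in the INTs, 15.2% in the *Tcrd* interval and 28.4% in the distal J array. Its INT share lay between the ranges of the Eα libraries (9.02% to 9.82%) and the TEAp libraries (17.8% to 19.5%), and its *Tcrd* share lay within the Eα range (13.6% to 15.2%). With 1 library there is no replicate check.

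In liver the share of the distal J array was 43.5% and 38.9% from Eα and 20.5% and 15.3% from TEAp, above every DP library of the same bait. The flank behind Eα held 33.5% and 33.4% of the liver fragments from Eα, against 6.76% to 7.36% in DP thymocytes. The *Tcrd* interval held 33.5% and 39.3% from TEAp in liver and 26.8% to 27.8% in DP thymocytes.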
